A study of Homo sapiens with 6 samples.

Results

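The genes described here are 37 genes of glycolysis, the fate of pyruvate and the pentose phosphate pathway. They were chosen by name from a list, with earlier results of these data known. Their transcripts were counted in cells labelled HT29, an established line from a human colorectal cancer. One group of 3 libraries had an siRNA against RNF6 and is labelled as RNF6 knockdown, and the other group of 3 had a nonspecific control siRNA and is labelled as wild type. RNF6 encodes an E3 ubiquitin ligase of the RING type. All 6 libraries came from transfected cells in medium with serum, and neither how many siRNA sequences were used nor when the cells were harvested is stated in the labels. Nothing in the labels tells whether replicates are separate cultures, and the p-values therefore cover the spread among these libraries alone, which may be technical. In the count files 56638 gene symbols are listed and 14685 had enough reads to be tested. Of the 37 genes, 36 were found under their current symbol and TIGAR under its older symbol C12orf5, and all 37 were tested.

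Levels are in CPM, the reads of a gene relative to the scaled total of reads assigned to genes in its library, and lists of values run through replicates 1, 2 and 3. RNF6 itself had 16.5, 16.2 and 16.9 CPM in the RNF6 siRNA libraries, against 54.3, 45.2 and 57.8 CPM in the control siRNA libraries (log2 fold change -1.66, SE 0.126, adjusted p = 2.12e-06). Reads assigned to genes ranged from 6808771 to 11071456 in RNF6 siRNA libraries and from 7173957 to 9366532 in control siRNA libraries, and the 37 genes had between 87 and 41188 reads in a library. The summed level of 10 colorectal epithelial markers was 2440 to 2830 CPM in RNF6 siRNA and 4350 to 5650 CPM in control siRNA libraries, with 4 markers lower, all of them keratin genes, and the part of this in the results below was not tested. Of these markers CDX1 was listed at 0, and VIL1 and CEACAM5 were near 0. KRT20 had 0.633 CPM in RNF6 siRNA and 1.99 CPM in control siRNA libraries on average. EPCAM had 227 CPM in RNF6 siRNA and 218 CPM in control siRNA libraries on average. CDX2 had 16.1 CPM in RNF6 siRNA and 15.9 CPM in control siRNA libraries. Whether the cells are HT29, as labelled, was not tested. Immune markers summed to at most 2.39 CPM in RNF6 siRNA and 3.47 CPM in control siRNA libraries, and endothelial markers to at most 2.07 CPM in RNF6 siRNA and 2.69 CPM in control siRNA libraries. Fibroblast markers summed to 70.1 to 85 CPM in RNF6 siRNA and 50.4 to 65.6 CPM in control siRNA libraries, almost all of it COL1A1. Neuronal markers, mostly MAP2, summed to 39.3 to 51.7 CPM in RNF6 siRNA and 34.2 to 44.1 CPM in control siRNA libraries.

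Glycolysis splits glucose into pyruvate and yields ATP without oxygen. Several of its steps are carried out by isoenzymes, proteins from different genes that catalyse the same reaction with different kinetics and regulation. Pyruvate is reduced to lactate and exported, or it enters mitochondria through the pyruvate dehydrogenase complex, which pyruvate dehydrogenase kinases switch off. The pentose phosphate pathway branches off at glucose 6-phosphate and supplies NADPH and ribose 5-phosphate. Colorectal cancer cells commonly make lactate even when oxygen is present, and many glycolytic genes are known targets of the hypoxia-inducible factor HIF-1.

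After RNF6 siRNA 17 of the 37 genes were higher and 10 lower at an adjusted p below 0.05, and 10 did not pass. That is 45.9% higher and 27% lower, against 16.6% higher and 16.1% lower of all tested genes. Since the genes were chosen with earlier results of these data known, these shares are a description and not a test. The median log2 fold change was 0.18 over the 37 genes and 0.006 over all tested genes. A rise of at least 2-fold was reached by 6 of the 37, namely SLC2A3, HK2, PFKFB4, PDK1, GPI and ENO2, and by 3.09% of all tested genes. Every RNF6 siRNA library was above every control library for 17 of the 37 genes, against 22.4% of tested genes, and below it for 10, against 21.8%. In lower glycolysis, from GAPDH to PKM, 5 of 6 genes rose and none fell. Among those of the 37 that encode the pyruvate dehydrogenase complex and its kinases 3 of 6 fell and 1 rose. In the pentose phosphate branch 2 of 7 rose and 2 fell. Glucose uptake, the PFKFB genes, lactate dehydrogenase and the kinases each had at least 1 gene in either direction. In bulk RNA, a change in the RNA of each cell and a change in the mix of cells cannot be told apart. Calls depended on the libraries used: 15 of the 27 called genes kept the call under all 12 alternative settings, and 10 of the 37 were higher without control siRNA replicate 2, against 14% of all genes tested then. A fit with the replicate number as a block is among the alternatives, and under it TPI1, GAPDH, PGK1, LDHA, LDHB, DLAT and TIGAR lost the call. The losses named gene by gene are those under the other settings.

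**Figure D1:**
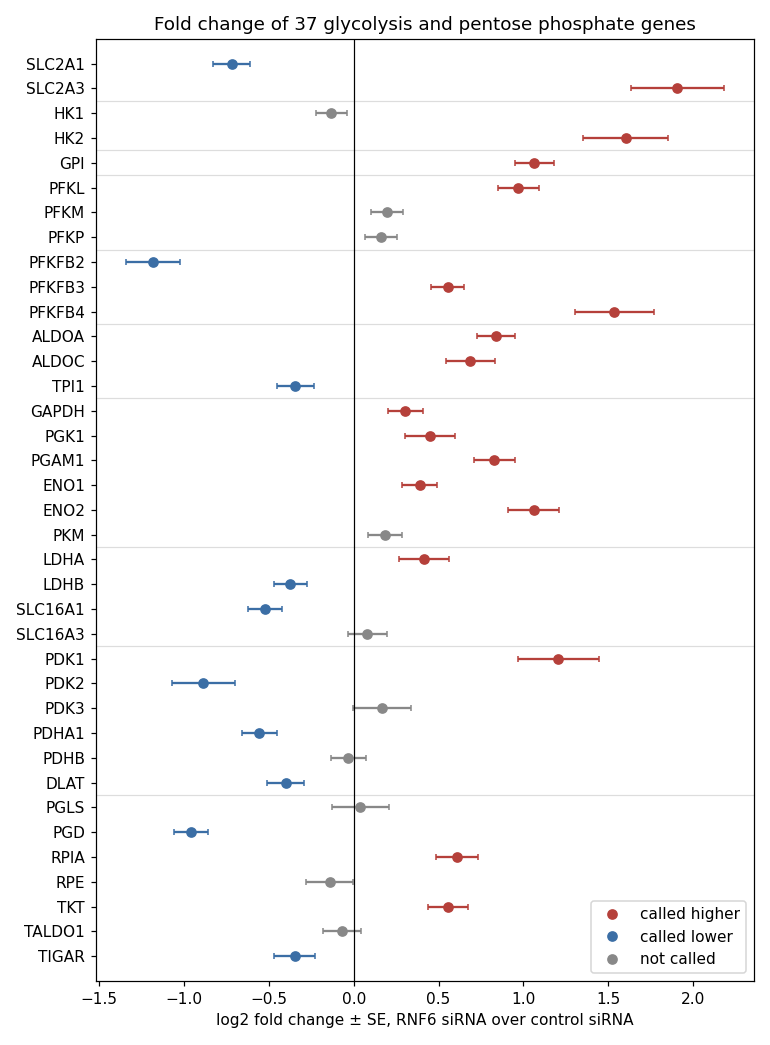
Log2 fold change with its standard error for the 37 genes, in pathway order from glucose uptake at the top to the pentose phosphate pathway at the bottom, with lines between steps. Red genes were called higher in RNF6 siRNA libraries, blue lower, and grey did not pass; 17 are red, 10 blue and 10 grey.

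The glucose transporters moved in opposite directions. SLC2A3 encodes GLUT3, a high-affinity transporter best known from neurons. SLC2A3 had 225, 305 and 221 CPM in the RNF6 siRNA libraries, against 109, 46.8 and 46.1 CPM in the control siRNA libraries. It rose 3.75-fold (log2 fold change 1.91, SE 0.273, adjusted p = 2.83e-04), and the highest control library stayed below the lowest RNF6 siRNA library. SLC2A1 encodes GLUT1, the common transporter of most cultured cells. SLC2A1 had 219, 203 and 202 CPM in the RNF6 siRNA libraries, against 396, 326 and 307 CPM in the control siRNA libraries. It fell 1.65-fold (log2 fold change -0.72, SE 0.109, adjusted p = 3.29e-04), without overlap between the groups. The SLC2A3 call was lost with an adjusted p of 0.0732 without the filter on low counts and 0.0782 without control siRNA replicate 2, and over the 12 alternatives this p ran from 2.92e-14 to 0.0782. The SLC2A1 call held in every alternative.

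Hexokinases trap glucose in the cell as glucose 6-phosphate. HK2 is the inducible form of muscle and many tumours. HK2 had 192, 199 and 187 CPM in the RNF6 siRNA libraries, against 103, 44.3 and 44.8 CPM in the control siRNA libraries. It rose 3.04-fold (log2 fold change 1.60, SE 0.25, adjusted p = 4.66e-04), and control replicate 1 lay between the other control libraries and the RNF6 siRNA libraries. HK1, the widely expressed form, did not pass. HK1 had 226, 214 and 208 CPM in the RNF6 siRNA libraries, against 225, 246 and 239 CPM in the control siRNA libraries. Its groups overlapped (log2 fold change -0.13, SE 0.0903, adjusted p = 0.29). The HK2 call was lost with an adjusted p of 0.0628 without control siRNA replicate 2 and 0.051 without RNF6 siRNA replicate 1, and over the 12 alternatives this p ran from 2.08e-14 to 0.0628. A pseudogene of HK2 had 42, 22 and 51 reads in RNF6 siRNA libraries and 9, 2 and 8 reads in control siRNA libraries, 1.89% of the reads of HK2, with which it shares sequence.

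GPI and PFKL, which act in succession before sugar cleavage, both rose. GPI converts glucose 6-phosphate to fructose 6-phosphate. GPI had 886, 795 and 762 CPM in the RNF6 siRNA libraries, against 449.7, 372 and 348 CPM in the control siRNA libraries. It rose 2.09-fold (log2 fold change 1.06, SE 0.114, adjusted p = 2.54e-05), with wide separation of the groups. PFKL is the liver form of phosphofructokinase, which commits the sugar to glycolysis. PFKL had 167, 120.4 and 156 CPM in the RNF6 siRNA libraries, against 74.7, 75.7 and 76.1 CPM in the control siRNA libraries. The control libraries lay close together (SD 0.694 CPM, n = 3), RNF6 siRNA replicate 2 was the lowest of its group, and the rise was 1.96-fold (log2 fold change 0.97, SE 0.122, adjusted p = 8.34e-05). PFKM, the muscle form, had 254 ± 5.52 CPM in RNF6 siRNA and 222 ± 19.5 CPM in control siRNA libraries (SD, n = 3), and PFKP, the platelet form, had 370.3 ± 32.7 CPM in RNF6 siRNA and 331 ± 6.25 CPM in control siRNA libraries. Neither passed (adjusted p = 0.132 for PFKM and 0.216 for PFKP), although the PFKM libraries did not overlap.

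PFKFB genes encode the bifunctional enzymes that make and remove fructose 2,6-bisphosphate, the strongest allosteric activator of phosphofructokinase. PFKFB4 rose most among them. PFKFB4 had 186, 182 and 178 CPM in the RNF6 siRNA libraries, against 98.6, 48.5 and 42.5 CPM in the control siRNA libraries. The rise was 2.90-fold (log2 fold change 1.54, SE 0.233, adjusted p = 3.36e-04), and control replicate 1 was the highest control library. PFKFB3, whose kinase activity far exceeds its phosphatase activity, rose as well. PFKFB3 had 93.9, 92.7 and 98.2 CPM in the RNF6 siRNA libraries, against 66.4, 64.8 and 62.7 CPM in the control siRNA libraries. The libraries of each group lay close together, and the rise was 1.47-fold (log2 fold change 0.55, SE 0.0969, adjusted p = 9.31e-04). PFKFB2, the heart form, moved the other way. PFKFB2 had 13.6, 14.8 and 19.2 CPM in the RNF6 siRNA libraries, against 39.9, 29.9 and 39.0 CPM in the control siRNA libraries. It fell 2.27-fold (log2 fold change -1.18, SE 0.159, adjusted p = 1.36e-04), without overlap. The PFKFB4 call was lost with an adjusted p of 0.0682 without control siRNA replicate 2, and over the 12 alternatives this p ran from 8.87e-14 to 0.0682.

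**Figure D2:**
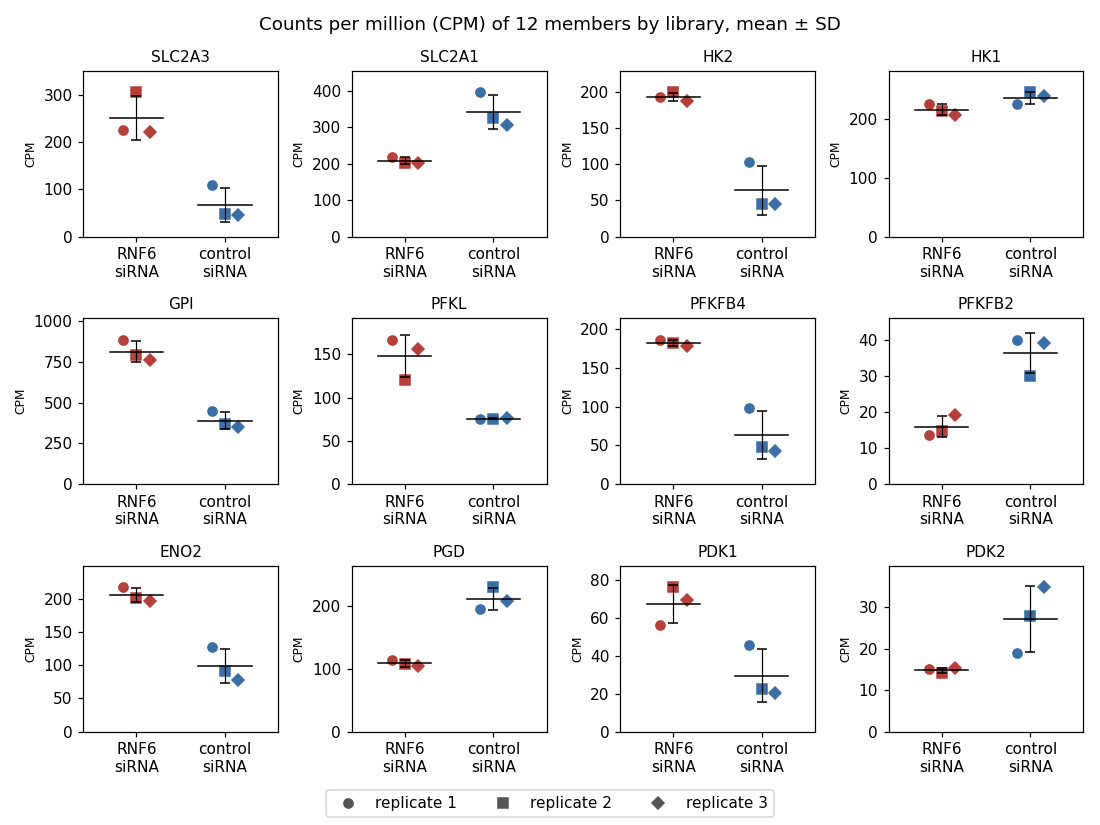
Level in CPM of 12 of the genes in each library, with RNF6 siRNA at the left and control siRNA at the right of each panel. Symbols mark the replicate, horizontal lines the mean and error bars the SD (n = 3). Control replicate 1 (circle) is the highest control for SLC2A3, SLC2A1, HK2, GPI, PFKFB4, PFKFB2, ENO2 and PDK1, by little for PFKFB2. It is the lowest control for HK1, PFKL, PGD and PDK2, by little for PFKL.

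Aldolases cleave fructose 1,6-bisphosphate. ALDOA is the main form of muscle and most dividing cells. ALDOA had 1953, 1604 and 1521 CPM in the RNF6 siRNA libraries, against 986, 984 and 870.3 CPM in the control siRNA libraries. It rose 1.79-fold (log2 fold change 0.84, SE 0.113, adjusted p = 1.43e-04), but exons of other genes cover 53.5% of its exon length, and since the strand setting of the counting is not stated in the labels, reads there may belong to either gene. ALDOC, the brain form, rose 1.61-fold. ALDOC had 105, 114 and 97.1 CPM in the RNF6 siRNA libraries, against 82.8, 58.3 and 55.8 CPM in the control siRNA libraries. The groups did not overlap (log2 fold change 0.69, SE 0.143, adjusted p = 0.00295), and exons of other genes cover 10.1% of ALDOC. TPI1 interconverts the triose phosphates that aldolase releases. TPI1 had 507, 390.4 and 426 CPM in the RNF6 siRNA libraries, against 551, 594 and 536 CPM in the control siRNA libraries. It fell 1.27-fold (log2 fold change -0.34, SE 0.109, adjusted p = 0.0282). The TPI1 call was lost with an adjusted p of 0.0639 without control siRNA replicate 3, 0.122 without RNF6 siRNA replicate 2 and 0.104 without RNF6 siRNA replicate 3, and over the 12 alternatives this p ran from 0.00689 to 0.122. Pseudogenes of TPI1 had 2774, 1455 and 2573 reads in RNF6 siRNA libraries and 2070, 2600 and 2355 reads in control siRNA libraries, 50.7% of the number assigned to TPI1, so the split of reads between them is uncertain.

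In lower glycolysis 5 of 6 genes rose. PGAM1, the phosphoglycerate mutase, rose 1.77-fold. PGAM1 had 293, 305 and 271 CPM in the RNF6 siRNA libraries, against 195, 156 and 139.8 CPM in the control siRNA libraries. The groups did not overlap (log2 fold change 0.83, SE 0.12, adjusted p = 2.48e-04). ENO2, called neuronal enolase, rose 2.08-fold. ENO2 had 217, 202 and 197 CPM in the RNF6 siRNA libraries, against 127, 90.8 and 78.3 CPM in the control siRNA libraries. The lowest RNF6 siRNA library was above the highest control (log2 fold change 1.06, SE 0.148, adjusted p = 1.84e-04), and the neuronal markers SNAP25, SYP, MAP2 and RBFOX3 did not pass. ENO1, the ubiquitous enolase, rose 1.31-fold. ENO1 had 3787, 3658 and 3452 CPM in the RNF6 siRNA libraries, against 3019, 2789 and 2514 CPM in the control siRNA libraries. Its groups did not overlap (log2 fold change 0.39, SE 0.102, adjusted p = 0.0109). The ENO1 call was lost with an adjusted p of 0.0969 without control siRNA replicate 3, and over the 12 alternatives this p ran from 0.00163 to 0.0969.

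GAPDH and PGK1 also rose, and PKM did not pass. GAPDH oxidises glyceraldehyde 3-phosphate. GAPDH had 3449.6, 3084 and 3024 CPM in the RNF6 siRNA libraries, against 2812, 2541 and 2394 CPM in the control siRNA libraries. It rose 1.23-fold (log2 fold change 0.30, SE 0.103, adjusted p = 0.0376), and exons of other genes cover 14.2% of its exon length. The GAPDH call was lost with an adjusted p of 0.061 without control siRNA replicate 2, 0.208 without control siRNA replicate 3, 0.143 without RNF6 siRNA replicate 1, 0.0797 without RNF6 siRNA replicate 2 and 0.065 without RNF6 siRNA replicate 3, and over the 12 alternatives this p ran from 0.00939 to 0.208. PGK1 makes ATP from bisphosphoglycerate. PGK1 had 1100.0, 1220.0 and 1046 CPM in the RNF6 siRNA libraries, against 1063, 735 and 668 CPM in the control siRNA libraries. It rose 1.37-fold (log2 fold change 0.45, SE 0.149, adjusted p = 0.0349), and control replicate 1 overlapped the RNF6 siRNA group. The PGK1 call was lost with an adjusted p of 0.0556 without control siRNA replicate 2, 0.193 without control siRNA replicate 3, 0.139 without RNF6 siRNA replicate 2 and 0.0697 without RNF6 siRNA replicate 3, and over the 12 alternatives this p ran from 1.76e-05 to 0.193. PKM, the pyruvate kinase of most tissues, whose splice forms the counts do not separate, had 2992 ± 168 CPM in RNF6 siRNA and 2634 ± 184 CPM in control siRNA libraries (SD, n = 3). It did not pass (adjusted p = 0.17), although its libraries did not overlap.

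The lactate dehydrogenase subunits moved in opposite directions. LDHA encodes the subunit prevalent in muscle and in cells that make lactate. LDHA had 1918, 2182 and 1742 CPM in the RNF6 siRNA libraries, against 1846, 1329 and 1208 CPM in the control siRNA libraries. It rose 1.33-fold (log2 fold change 0.41, SE 0.147, adjusted p = 0.0449), and control replicate 1 overlapped the RNF6 siRNA libraries. LDHB encodes the subunit prevalent in heart. LDHB had 1163, 1107 and 1062 CPM in the RNF6 siRNA libraries, against 1384, 1564 and 1370.2 CPM in the control siRNA libraries. It fell 1.3-fold (log2 fold change -0.37, SE 0.0969, adjusted p = 0.0104), without overlap, and exons of other genes cover 33.4% of its exon length. The LDHA call was lost with an adjusted p of 0.0708 without control siRNA replicate 2, 0.232 without control siRNA replicate 3, 0.189 without RNF6 siRNA replicate 2 and 0.0619 without RNF6 siRNA replicate 3, and over the 12 alternatives this p ran from 9.67e-05 to 0.232. The LDHB call was lost with an adjusted p of 0.0512 without RNF6 siRNA replicate 3, and over the 12 alternatives this p ran from 0.00222 to 0.0517. Pseudogenes of LDHA had 597, 413 and 520 reads in RNF6 siRNA libraries and 361, 317 and 332 reads in control siRNA libraries, 2.77% of the reads of LDHA.

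Lactate leaves the cell through monocarboxylate transporters. SLC16A1, which encodes MCT1, fell 1.44-fold. SLC16A1 had 129.6, 141 and 145 CPM in the RNF6 siRNA libraries, against 209.9, 181 and 206 CPM in the control siRNA libraries. The groups did not overlap (log2 fold change -0.52, SE 0.0988, adjusted p = 0.00155). SLC16A3, which encodes MCT4, the transporter of strongly glycolytic cells, did not pass. Its level was 435 ± 62.4 CPM in RNF6 siRNA and 412 ± 31.0 CPM in control siRNA libraries (SD, n = 3), and the groups overlapped (adjusted p = 0.634).

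At the entry of pyruvate into mitochondria, the kinases that inhibit pyruvate dehydrogenase also went apart. PDK1, a kinase known as a HIF-1 target, rose 2.31-fold. PDK1 had 56.2, 76.0 and 69.6 CPM in the RNF6 siRNA libraries, against 45.4, 22.5 and 20.4 CPM in the control siRNA libraries. The groups did not overlap, and control replicate 1 stood closest to the RNF6 siRNA libraries (log2 fold change 1.21, SE 0.237, adjusted p = 0.00203). PDK2 is the most widely expressed of the kinases. PDK2 had 15.0, 14.0 and 15.2 CPM in the RNF6 siRNA libraries, against 19.0, 27.8 and 34.8 CPM in the control siRNA libraries. It fell 1.85-fold (log2 fold change -0.89, SE 0.184, adjusted p = 0.00288), and control replicate 1 was the lowest control library. PDK3 had 18.9 ± 2.42 CPM in RNF6 siRNA and 17.1 ± 4.14 CPM in control siRNA libraries (SD, n = 3) and did not pass (adjusted p = 0.483). The PDK1 call was lost with an adjusted p of 0.0822 without control siRNA replicate 2, and over the 12 alternatives this p ran from 2.40e-12 to 0.0822. Exons of SAMD14 cover 38.6% of PDK2.

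Of the subunits of the complex itself, the E1 alpha gene PDHA1 and the E2 gene DLAT fell. PDHA1 had 93.7, 82.8 and 87.8 CPM in the RNF6 siRNA libraries, against 118, 138 and 132 CPM in the control siRNA libraries. PDHA1 fell 1.47-fold, without overlap (log2 fold change -0.56, SE 0.103, adjusted p = 0.00135), and exons of MAP3K15 cover 21.3% of it. DLAT had 73.9, 74.8 and 79.5 CPM in the RNF6 siRNA libraries, against 112, 89.5 and 99.9 CPM in the control siRNA libraries. DLAT fell 1.32-fold, without overlap (log2 fold change -0.40, SE 0.109, adjusted p = 0.0134). PDHB, the E1 beta subunit that pairs with PDHA1, had 59.4 ± 3.26 CPM in RNF6 siRNA and 60.8 ± 3.18 CPM in control siRNA libraries (SD, n = 3) and did not pass (adjusted p = 0.835). The DLAT call was lost with an adjusted p of 0.052 without control siRNA replicate 3, and over the 12 alternatives this p ran from 0.00306 to 0.0735.

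Promoter sequences are shown for LDHA and LDHB and for PDK1 and PDK2, since the genes of each pair moved in opposite directions. They are RefSeq windows on GRCh38.p14 from 250 bases before to 50 bases after a gene start, written 5′ to 3′ on the gene's strand. Where a gene has several windows, the window with most marked stretches is given. Capitals mark the letters ACGTG or GCGTG on either strand, the core of the element that HIF-1 binds, and ACGTG also lies within the E-box letters CACGTG.
LDHA (chr11:18394313-18394612, plus strand): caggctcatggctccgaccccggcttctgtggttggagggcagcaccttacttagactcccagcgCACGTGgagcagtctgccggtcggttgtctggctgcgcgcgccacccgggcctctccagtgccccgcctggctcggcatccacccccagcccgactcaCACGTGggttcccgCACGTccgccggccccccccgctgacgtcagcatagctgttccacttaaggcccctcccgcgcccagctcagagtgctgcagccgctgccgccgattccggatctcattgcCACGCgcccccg
LDHB (chr12:21657793-21658092, minus strand): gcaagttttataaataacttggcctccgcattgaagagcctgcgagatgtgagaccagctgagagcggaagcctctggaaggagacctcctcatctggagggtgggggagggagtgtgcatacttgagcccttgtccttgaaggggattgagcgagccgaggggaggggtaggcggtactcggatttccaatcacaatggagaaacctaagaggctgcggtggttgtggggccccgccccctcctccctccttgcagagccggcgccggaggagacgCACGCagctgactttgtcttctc
PDK1 (chr2:172555840-172556139, plus strand): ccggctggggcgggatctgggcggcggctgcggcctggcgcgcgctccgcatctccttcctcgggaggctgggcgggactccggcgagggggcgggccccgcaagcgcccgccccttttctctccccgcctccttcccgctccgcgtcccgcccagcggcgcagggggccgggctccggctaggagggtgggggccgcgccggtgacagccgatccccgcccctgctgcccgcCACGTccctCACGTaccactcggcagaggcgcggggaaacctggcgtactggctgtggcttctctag
PDK2 (chr17:50095101-50095400, plus strand): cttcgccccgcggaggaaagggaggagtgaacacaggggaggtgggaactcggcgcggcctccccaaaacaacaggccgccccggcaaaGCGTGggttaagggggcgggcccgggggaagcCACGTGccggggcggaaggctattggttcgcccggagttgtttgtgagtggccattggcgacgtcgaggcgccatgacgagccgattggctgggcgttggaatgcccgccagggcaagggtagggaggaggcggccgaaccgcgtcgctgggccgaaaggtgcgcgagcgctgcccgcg
The LDHA window held 4 marked stretches, counting a CACGTG, which reads the same on both strands, once. They lay from -185 to 38 bases relative to the gene start, and 1 was found for LDHB, at 27. PDK1 had 2 and PDK2 had 2. RefSeq windows were found for 34 of the 37 genes, not for SLC2A3, PFKFB2 or SLC16A1. Such a match was found in 39 of 62 windows of these genes (62.9%) and in 48.4% of all 35116 windows. CACGTG was found in 8 of the 62 windows and in 7.26% of all. At least 1 window with ACGTG or GCGTG was present for 29 of the 34 genes, against 52.4% of all 27305 genes with a window. These were 14 of 16 higher genes, 8 of 8 lower genes and 7 of 10 genes that did not pass. A gene with several windows can match in any of them. The 34 genes had 62 windows and all 27305 genes had 35116, so the shares per gene are not on equal terms. The 27305 genes include genes that were not tested here. A match describes the letters only.

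The pentose phosphate genes went both ways. PGD, the second NADPH-producing dehydrogenase of the oxidative branch, fell 1.94-fold. PGD had 114, 108 and 104 CPM in the RNF6 siRNA libraries, against 195, 229 and 208 CPM in the control siRNA libraries. The groups were far apart (log2 fold change -0.96, SE 0.0991, adjusted p = 2.00e-05). TKT, the transketolase of the non-oxidative branch, rose 1.47-fold. TKT had 1001, 857 and 883 CPM in the RNF6 siRNA libraries, against 521, 694 and 650.3 CPM in the control siRNA libraries. The groups did not overlap, and control replicate 1 was the lowest library (log2 fold change 0.56, SE 0.117, adjusted p = 0.00321). RPIA, which isomerises ribulose 5-phosphate to ribose 5-phosphate, rose 1.53-fold. RPIA had 68.4, 56.1 and 60.8 CPM in the RNF6 siRNA libraries, against 36.6, 46.3 and 38.5 CPM in the control siRNA libraries. The groups did not overlap (log2 fold change 0.61, SE 0.123, adjusted p = 0.00242).

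TIGAR dephosphorylates fructose 2,6-bisphosphate and so favours the pentose phosphate branch. TIGAR had 36.0, 35.1 and 30.1 CPM in the RNF6 siRNA libraries, against 38.1, 43.4 and 46.8 CPM in the control siRNA libraries. It fell 1.27-fold (log2 fold change -0.35, SE 0.121, adjusted p = 0.0418), although exons of other genes cover 45.6% of its exon length. The TIGAR call was lost with an adjusted p of 0.0563 with upper-quartile scaling, 0.0527 with DESeq2, 0.0649 without control siRNA replicate 2, 0.19 without control siRNA replicate 3, 0.073 without RNF6 siRNA replicate 2 and 0.193 without RNF6 siRNA replicate 3, and over the 12 alternatives this p ran from 0.00639 to 0.193. PGLS, RPE and TALDO1, which encode the lactonase, the ribulose 5-phosphate epimerase and the transaldolase, did not pass. PGLS had 15.9 ± 0.94 CPM in RNF6 siRNA and 15.3 ± 3.82 CPM in control siRNA libraries (SD, n = 3; adjusted p = 0.884). RPE had 54.7 ± 7.39 CPM in RNF6 siRNA and 60.2 ± 9.65 CPM in control siRNA libraries (adjusted p = 0.458), with 23.8% of it under exons of KANSL1L. TALDO1 had 196 ± 19.0 CPM in RNF6 siRNA and 206 ± 26.5 CPM in control siRNA libraries (adjusted p = 0.676).

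Isoenzymes were compared with each other by the log2 ratio of their read counts within a library, which depends neither on library scaling nor on gene length for its difference between groups. Of 16 pairs, 14 had ratios without overlap between the groups. For each of these the two-sided exact permutation p was 0.1, the smallest that 3 libraries against 3 can give, and 0.114 after Benjamini-Hochberg adjustment over the pairs, so none could pass the threshold of 0.05. Of single tested genes, 22.4% had every RNF6 siRNA library above every control library and 21.8% had every one below. How many pairs of any tested genes lack overlap was not computed, and several of the 16 pairs share a gene. The largest shift was that of PFKFB4 over PFKFB2, whose log2 ratio was 3.77, 3.61 and 3.21 in the RNF6 siRNA libraries and 1.3, 0.70 and 0.12 in the control siRNA libraries, a difference of 2.83. The log2 ratio of SLC2A3 over SLC2A1 was 0.04, 0.58 and 0.13 in the RNF6 siRNA libraries and -1.87, -2.80 and -2.73 in the control siRNA libraries, a difference of 2.72. For PDK1 over PDK2 it was 1.90, 2.43 and 2.19 in the RNF6 siRNA libraries and 1.25, -0.30 and -0.77 in the control siRNA libraries, a difference of 2.11. In each of these pairs the control libraries spread widely, with replicate 1 nearest to the RNF6 siRNA libraries.

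The difference was 1.84 for HK2 over HK1, 1.75 for PFKFB3 over PFKFB2, 1.11 for PDK1 over PDK3, 1.08 for PFKFB4 over PFKFB3 and 1.00 for PDK3 over PDK2. Smaller differences were those of LDHA over LDHB (0.81), PFKL over PFKP (0.80), PFKL over PFKM (0.75), ENO2 over ENO1 (0.69), SLC16A3 over SLC16A1 (0.59) and the subunit pair PDHB over PDHA1 (0.52). The groups overlapped for PFKP over PFKM (difference -0.04, two-sided exact permutation p = 0.7) and for ALDOC over ALDOA (difference -0.13, p = 0.6 by the same test).

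**Figure D3:**
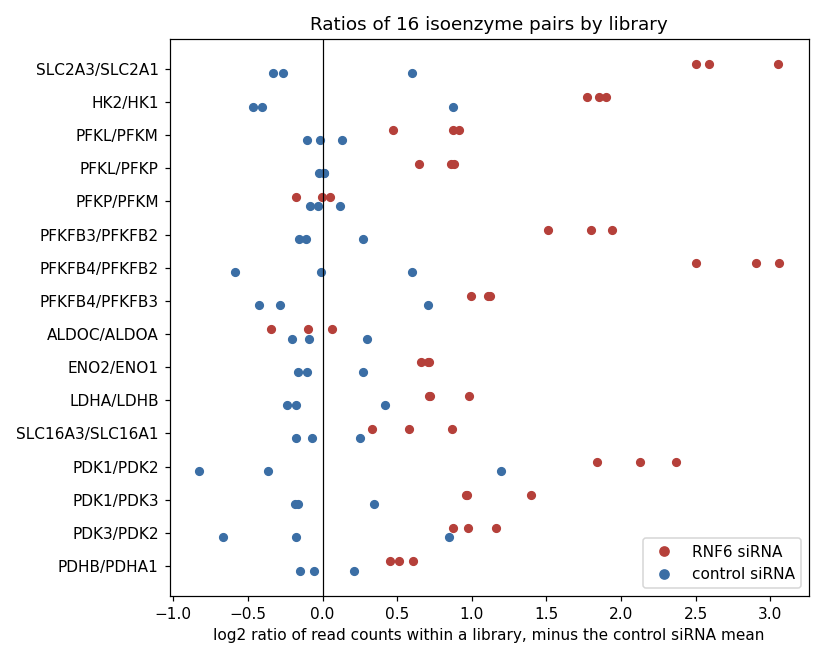
Log2 ratio of read counts of 16 gene pairs within each library, with the mean of the control siRNA libraries set to 0. Red points are RNF6 siRNA and blue points control siRNA libraries; the groups overlap for PFKP/PFKM and ALDOC/ALDOA.

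Levels of isoenzymes were set against each other as CPM per kilobase of merged exons, and each gene as a share of its family. SLC2A3 made up 47.7% ± 5.04 in RNF6 siRNA and 12.5% ± 4.18 in control siRNA libraries (mean ± SD, n = 3 each). HK2 made up 48.1% ± 1.12 in RNF6 siRNA and 21.4% ± 9.28 in control siRNA libraries, at 31.8 CPM per kilobase in RNF6 siRNA and 10.5 CPM per kilobase in control siRNA libraries. HK1 was at 34.4 CPM per kilobase in RNF6 siRNA and 37.6 CPM per kilobase in control siRNA libraries. With the longest transcript as the length, HK2 made up 38.2% in RNF6 siRNA and 15.5% in control siRNA libraries. How near HK2 came to HK1 therefore depended on the length used. PFKFB4 made up 63.6% ± 1.43 in RNF6 siRNA and 40.7% ± 10.1 in control siRNA libraries, and PFKFB2 3.32% ± 0.605 in RNF6 siRNA and 14.8% ± 2.96 in control siRNA libraries. PDK1 made up 40.9% ± 4.15 in RNF6 siRNA and 18.8% ± 8 in control siRNA libraries, and PDK2 24.5% ± 2.38 in RNF6 siRNA and 48.1% ± 14.7 in control siRNA libraries. LDHA made up 45.6% ± 2.6 in RNF6 siRNA and 32.6% ± 5.6 in control siRNA libraries. With the longest transcript as the length, these LDHA shares were 52.6% in RNF6 siRNA and 39% in control siRNA libraries, so which subunit was the more abundant after RNF6 siRNA depended on the length used.

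The main forms of phosphofructokinase, aldolase and enolase stayed the same ones. PFKP held 59.9% ± 0.773 in RNF6 siRNA and 63.9% ± 1.21 in control siRNA libraries and PFKL 12.9% ± 1.25 in RNF6 siRNA and 7.89% ± 0.242 in control siRNA libraries. ALDOA held 92.2% ± 1.01 in RNF6 siRNA and 91.6% ± 1.46 in control siRNA libraries. ENO1 stood at 688 CPM per kilobase in RNF6 siRNA and 526 CPM per kilobase in control siRNA libraries, and ENO2 at 48.0 CPM per kilobase in RNF6 siRNA and 23.1 CPM per kilobase in control siRNA libraries. The ENO2 share of the summed ENO1 and ENO2 level was 6.51% ± 0.13 in RNF6 siRNA and 4.16% ± 0.675 in control siRNA libraries. SLC16A3 held 64.8% ± 4.21 in RNF6 siRNA and 55% ± 3.79 in control siRNA libraries.

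**Figure D4:**
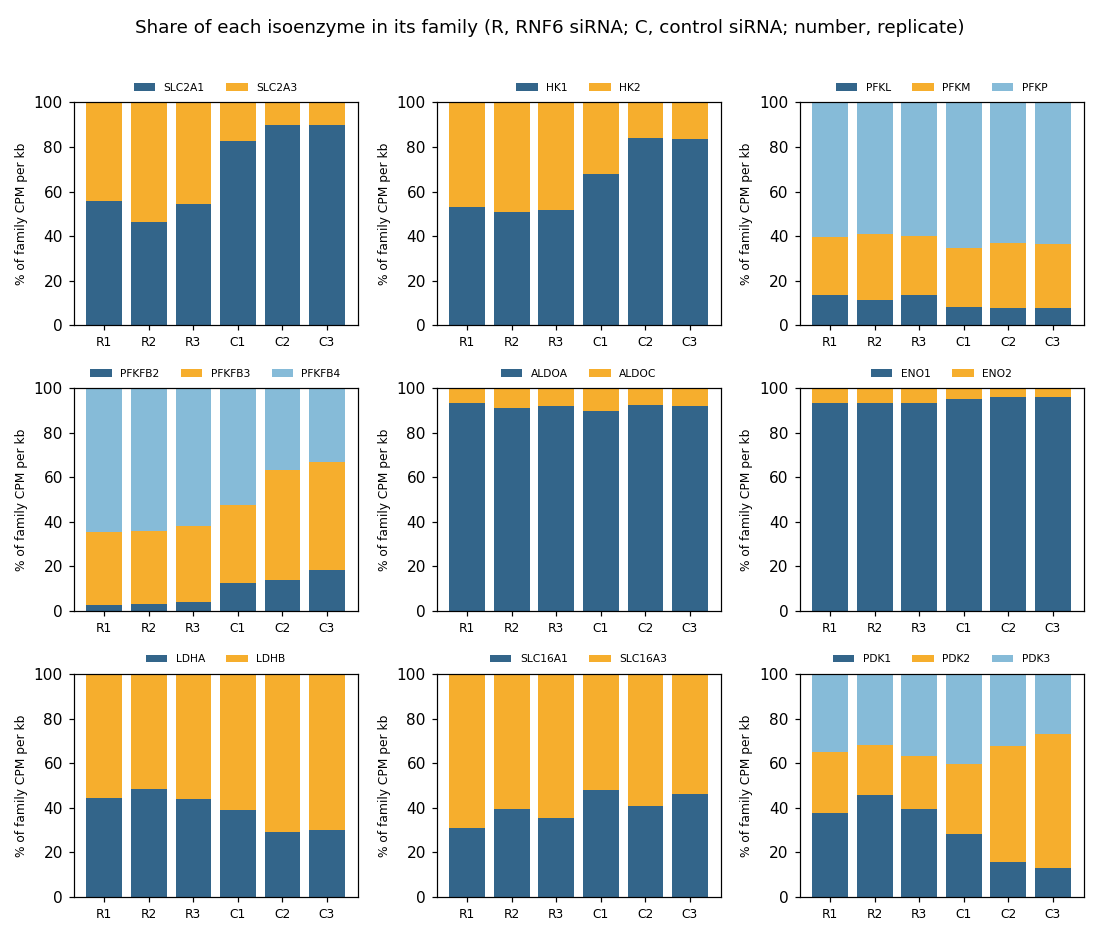
Share of each isoenzyme in the summed CPM per kilobase of its family, in percent, for RNF6 siRNA replicates (R1 to R3, left) and control siRNA replicates (C1 to C3, right). SLC2A3, HK2, PFKFB4 and PDK1 take a larger share in every RNF6 siRNA library than in any control library, while the ALDOC share overlaps between the groups.

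Control replicate 1 differed from the other controls for part of these genes. Its level was at least 1.3 times the mean of control replicates 2 and 3 for 10 of the 37 genes (27%), against 12.8% of all tested genes, and 9 of these 10 were higher after RNF6 siRNA. The ratio was 2.34 for SLC2A3, 2.30 for HK2, 2.17 for PFKFB4 and 2.12 for PDK1. It was 1.52 for PGK1, 1.51 for ENO2, 1.48 for PDK3, 1.46 for LDHA, 1.45 for ALDOC and 1.32 for PGAM1. The lowest ratios were those of PDK2 (0.607), PGLS (0.704) and TKT (0.775). GPI and PFKL had ratios of 1.25 and 0.985, and without that library their log2 fold changes were 1.17 and 0.95. Control replicate 1 was the highest control for 21 of the 37 genes (56.8%), against 40.3% of all tested genes. Among the 17 higher genes it was the highest control for 14. The same share among all genes called higher was not computed, nor was the share called higher among all genes with a ratio of at least 1.3.

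With control replicate 1 left out, 17 of the 37 genes were called higher and 10 lower, the same genes as with it, against 19.4% higher and 19.7% lower of all genes tested then. The log2 fold change was then 2.42 for SLC2A3, 2.10 for HK2, 1.99 for PFKFB4, 1.64 for PDK1 and 1.27 for ENO2, each larger than with all libraries. For PGK1 it was 0.67 and for LDHA 0.61. What set control replicate 1 apart was not tested. It had the fewest reads of the control libraries, 7173957.

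**Figure D5:**
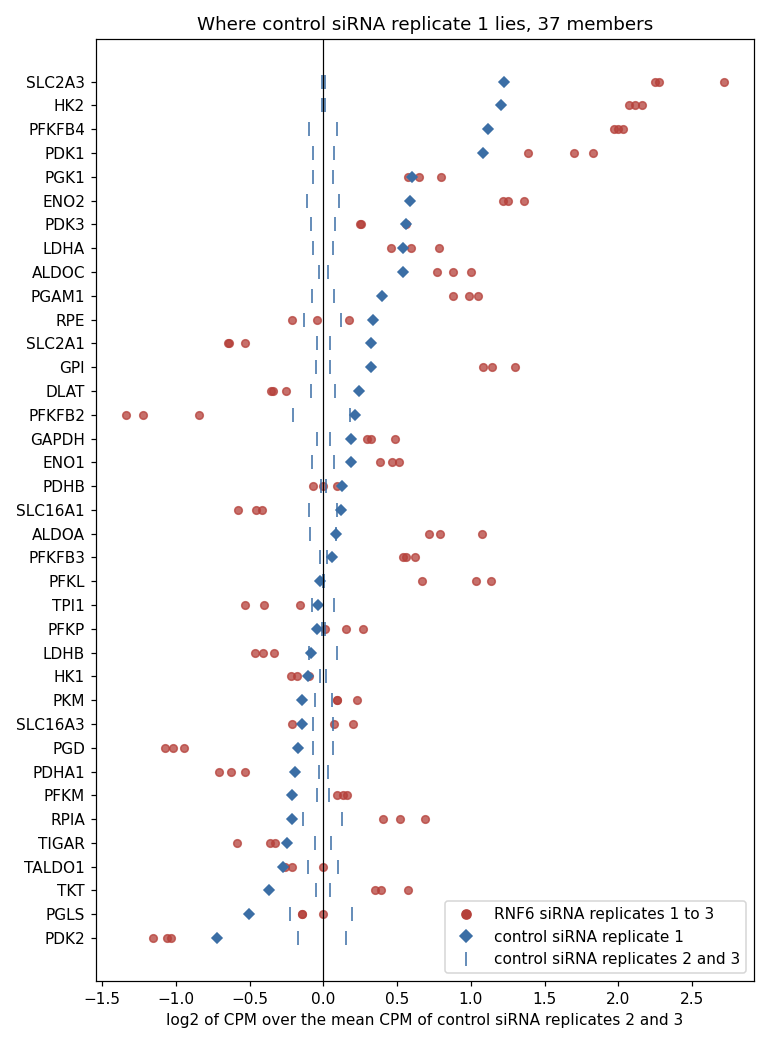
Log2 of the level in each library over the mean of control siRNA replicates 2 and 3, with the genes sorted by control siRNA replicate 1 (diamond). For SLC2A3, HK2, PFKFB4 and PDK1 the diamond lies more than 1 log2 unit above the other controls (bars) and below all RNF6 siRNA libraries (circles).

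Other genes of glucose metabolism, taken from a list of 59 further isoenzymes, regulators and enzymes of linked pathways, changed about as often as all tested genes (16.6% higher and 16.1% lower). Of 40 that were tested, 8 were higher (20%), 7 lower (17.5%) and 25 did not pass, with a median log2 fold change of 0.09. The strongest calls upward were those of PCK2, PGAM4 and PGM2L1. PCK2, the mitochondrial phosphoenolpyruvate carboxykinase, had 31.1 ± 4.42 CPM in RNF6 siRNA and 13.8 ± 1.16 CPM in control siRNA libraries (SD, n = 3) and rose 2.27-fold (adjusted p = 5.57e-05). PGAM4, a retrocopy of PGAM1 whose reads are hard to tell from those of PGAM1, had 19.1 ± 1.3 CPM in RNF6 siRNA and 9.49 ± 0.553 CPM in control siRNA libraries and rose 2.03-fold (adjusted p = 1.19e-04). PGM2L1, a glucose 1,6-bisphosphate synthase, rose 1.63-fold (adjusted p = 0.00231).

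The strongest calls downward in that list were those of GPD1L, PRPS1 and MPC2. GPD1L, a relative of glycerol 3-phosphate dehydrogenase, had 28.4 ± 3.56 CPM in RNF6 siRNA and 70.1 ± 6.13 CPM in control siRNA libraries (SD, n = 3) and fell 2.48-fold (adjusted p = 1.04e-05). PRPS1, which turns ribose 5-phosphate into the precursor of nucleotides, had 49.3 ± 1.07 CPM in RNF6 siRNA and 86.4 ± 3.64 CPM in control siRNA libraries and fell 1.75-fold (adjusted p = 6.83e-05). MPC2, a subunit of the mitochondrial pyruvate carrier, fell 1.43-fold (adjusted p = 0.00643).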

How the data were processed

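RNA was sequenced from 6 libraries, 3 per group. Groups come from the sample titles, and the number that ends each title was taken as the replicate number. The titles do not say whether that number marks a replicate or a different siRNA sequence. The authors deposited whole-number read counts per gene symbol, not normalised. The submitters' processing notes name TopHat2 2.0.11, a spliced aligner, HTSeq, a read counter, and the build hg19 (GRCh37). For the strand setting, annotation release and HTSeq version nothing is stated in the sources used here. Summary rows without a gene held 27.3% to 29.4% of a library's listed reads and were left out.

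Counts were tested in R 4.3.3 with edgeR 4.0.16: filterByExpr with a minimum count of 10, TMM scaling (factors 0.985 to 1.02), and a robust quasi-likelihood fit with the group as its only term, two-sided, adjusted by Benjamini-Hochberg over 14685 genes. Adjusted p-values of genes are from this edgeR test, except where another tool is named. The test was also run on counts simulated from its own fitted dispersions, with far fewer changed genes than were called here. No simulated library was made to differ from its group, so that run does not cover a deviating control library. A positive log2 fold change means a higher level after RNF6 siRNA. Alternatives used other scaling, no filter, DESeq2 1.42.0, limma-voom (limma 3.58.1), the replicate block, and each library left out. Isoenzyme ratios used a prior count of 0.5. Exon lengths and overlaps come from GENCODE release 29 of GRCh38, which is not the build behind the counts. The genes and lists were chosen with earlier results of these data known. All 37 genes are named, and of the further list up to 3 called genes in each direction with the smallest adjusted p. DLD, PDHX and PDK4 of that list are named as well, beside the genes of their complex or family.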

Additional observations from a re-analysis of the deposited data

How the results depend on the processing

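The number of the 37 genes that were higher (17) and lower (10) stayed within 1.5 times under other scaling, without the filter on low counts, with DESeq2 and with limma-voom. With single libraries left out, the higher genes numbered 10 to 17 and the lower genes 7 to 10, the smallest number of higher genes being reached without control siRNA replicate 2. The replicate block gave 14 higher and 6 lower genes, and the call was lost for TPI1 (adjusted p = 0.091), GAPDH (0.082), PGK1 (0.0551), LDHA (0.0643), LDHB (0.0517), DLAT (0.0735) and TIGAR (0.152). Of all tested genes 16.6% were higher and 16.1% lower, against 9.68% and 9% with the block, 7.74% and 7.87% of 31511 genes without the filter, 10.1% and 10.7% without control siRNA replicate 3 and 10.3% and 9.94% without RNF6 siRNA replicate 3. Same-numbered libraries did not deviate together (correlations of deviations from the group means -0.463, -0.252 and 0.052 for replicates 1, 2 and 3, and no control library correlated best with its own number), so the numbers were not taken to pair the libraries. For the isoenzyme ratios the block turned no direction. No called gene changed direction under any alternative. Directions that turned were those of genes and pairs that had not passed: PGLS without control siRNA replicate 1 (-0.112), without control siRNA replicate 3 (-0.013) and without RNF6 siRNA replicate 2 (-0.007), TALDO1 without control siRNA replicate 2 (0.027), SLC16A3 without RNF6 siRNA replicate 1 (-0.017), PDHB without RNF6 siRNA replicate 3 (0.001), PFKP over PFKM without control siRNA replicate 1 (0.013) and without RNF6 siRNA replicate 2 (0.025), and ALDOC over ALDOA without control siRNA replicate 1 (0.02), all as log2 differences. With single libraries left out these differences ran from -0.112 to 0.243 for PGLS, from -0.163 to 0.027 for TALDO1, from -0.017 to 0.185 for SLC16A3, from -0.078 to 0.001 for PDHB, from -0.091 to 0.025 for PFKP over PFKM and from -0.231 to 0.02 for ALDOC over ALDOA. The causes were not tested. Depth limits the low genes most, PGLS having 87 reads in its lowest library.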
